A study of Mus musculus with 15 samples.

Results

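The ribosome that translates nuclear-encoded mRNAs in the cytoplasm is built from rRNA and from a fixed set of ribosomal proteins, and the genes of these proteins are described here in mouse LSK cells (lineage-negative, Sca-1+, c-Kit+ bone marrow cells, which hold hematopoietic stem cells and early progenitors). The genes were chosen by their symbols and not by their values, though earlier results of these data were known. Of 45232 gene IDs in the table of counts, 83 were protein-coding genes whose symbol is that of a large (Rpl, 51 genes) or small (Rps, 32 genes) subunit protein, and 82 of them were among the 17834 genes with enough counts to be tested. The pattern of symbols left out Fau, in which a ribosomal protein is fused to a ubiquitin-like protein, and Rpl36al. RNA sequencing covered 15 libraries in 5 groups of 3, all labelled as C57BL/6 and as CD45.2+ LSK cells. The mutant groups carried Jak2 V617F, which keeps JAK-STAT signaling switched on, together with Idh2 R140Q, which makes the oncometabolite 2-hydroxyglutarate. Both were conditional alleles recombined by the inducible Mx1-Cre, which acts in blood cells and in other tissues after polyI:polyC. Mutant CD45.2 marrow and an equal amount of CD45.1 wild-type marrow were transplanted into lethally irradiated CD45.1 mice, and the recipients were gavaged for 21 to 28 days with vehicle, AG221 (an inhibitor of mutant IDH2, 40 mg/kg), ruxolitinib (a JAK1 and JAK2 inhibitor, 60 mg/kg) or both drugs, called combined. The study's methods also name a higher dose of AG221. The fifth group was labelled wild type (WT), with no statement of whether these cells had been transplanted. The study speaks of the treated samples as mice, and does not say whether a WT library came from 1 mouse.

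Ribosomal protein mRNAs are among the most abundant and most evenly produced messages of a cell, since each mature ribosome holds about a single copy of most of the proteins. In mammals these mRNAs start with a 5′ terminal oligopyrimidine (TOP) tract, a C followed by an unbroken run of pyrimidines, through which mTORC1 and Larp1 control their translation, while Myc and other factors act on their transcription. Blood formation is sensitive to their dose. Loss of a copy of RPS19, RPL5 or RPL11 causes Diamond-Blackfan anemia, and loss of RPS14 contributes to the anemia of the del(5q) myelodysplastic syndrome. In mutant IDH2 and JAK2 disease the question put to these libraries was which part of the expression program each drug changes.

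Some of these genes show such a tract at their annotated start, and the sequence there is printed for members on which the results below turn and for 6 members chosen as examples of long runs. Each line gives 30 bases of the RefSeq promoter table (GRCm38.p6) on the strand of the gene, with the annotated transcription start at base 16 and with the longest C-led run of C and T that begins within 5 bases of it in capitals. The 6 examples come first.
Rpl15: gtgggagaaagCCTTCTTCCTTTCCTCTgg
Rpl35: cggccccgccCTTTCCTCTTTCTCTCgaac
Rps10: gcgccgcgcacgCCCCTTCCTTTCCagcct
Rpl7a: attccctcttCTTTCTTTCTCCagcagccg
Rps18: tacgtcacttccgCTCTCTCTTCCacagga
Rps6: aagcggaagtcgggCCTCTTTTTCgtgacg
Rpl38: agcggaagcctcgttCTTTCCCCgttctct
Rpl22l1: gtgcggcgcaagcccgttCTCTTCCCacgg
Rps2: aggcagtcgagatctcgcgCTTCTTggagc
Rpl13: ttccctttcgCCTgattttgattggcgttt
Rpl11: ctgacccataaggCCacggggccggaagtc
Rps13: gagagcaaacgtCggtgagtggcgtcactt
The windows lie at chr14:18270972-18271001 (minus strand, Rpl15), chr2:39005117-39005146 (minus, Rpl35), chr17:27635230-27635259 (minus, Rps10), chr2:26910792-26910821 (plus, Rpl7a), chr17:33955651-33955680 (minus, Rps18) and chr4:86857353-86857382 (minus, Rps6). Those of the other 6 are chr11:114668565-114668594 (plus, Rpl38), chr3:28805493-28805522 (plus, Rpl22l1), chr17:24720048-24720077 (plus, Rps2), chr8:123102335-123102364 (plus, Rpl13), chr4:136053379-136053408 (minus, Rpl11) and chr7:116334176-116334205 (minus, Rps13). Of the 83 genes, 63 were matched to the table, with 75 start windows. A C followed by at least 7 C or T that began within 5 bases of the annotated start was found in 21 of these windows (28.0%), against 4.31% of 32776 windows of other genes. With at least 4 C or T after the C, the shares were 41.3% and 18.3%. In the 300-base promoters, searched on both strands, CCGGAAG, the core of sites for Ets family factors such as GABP, occurred in 36.0% of the members' windows and 8.80% of the others. The letters AAGATGGC, found in sites of the factor YY1, occurred in 10.7% and 2.73%, and CACGTG, the E-box bound by Myc and related factors, in 10.7% and 7.14%. A match describes the letters in these windows and no binding was measured.

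The libraries held 18836625 to 32174287 counts. Levels are given in CPM, the count relative to the TMM-scaled library size. Relative to the unscaled total, a count of 0 allows a level of up to 0.0932 to 0.159 CPM, for counting error only, since reads without molecular identifiers are not independent molecules. Kit, one of the genes that define the sort, was at 740 to 1552 CPM in every library and Ly6a, which encodes Sca-1, at 13.1 to 166 CPM. The 12 stem and progenitor marker genes summed to 4403 to 4797 CPM in WT libraries and 2514 to 3893 CPM in the mutant groups, with no marker at 0. In vehicle against WT, 2 of the 12 rose and 3 fell (15.4% and 17.9% of all genes). The WT libraries stood apart in several ways. Immunoglobulin and T cell receptor genes took 0.680% to 2.39% of their counts, against 0.0161% to 0.107% in the other libraries, 8 plasma cell markers summed to 5179 to 16985 CPM against 202 to 911 CPM, and Xist was at 455 to 511 CPM against at most 19.5 CPM. The 9 neutrophil markers summed to 3476 to 3833 CPM in WT, 7823 to 12839 in vehicle, 17355 to 20467 in AG221, 12195 to 19309 in ruxolitinib and 4305 to 7727 in combined libraries, with none at 0. Of these 9, 4 rose in vehicle against WT (15.4% of all genes) and 7 were lower in combined against AG221 (14.3% of all genes). The 8 monocyte and dendritic cell markers summed to 439 to 495 CPM in WT, 718 to 1124 in vehicle, 1191 to 1634 in AG221, 671 to 1395 in ruxolitinib and 584 to 1136 in combined libraries, and 5 rose and 5 were lower in the same comparisons. The 6 mast cell and basophil markers summed to 75.2 to 152 CPM in WT and 260 to 1005 CPM in the mutant groups (5 rose in vehicle against WT). The 6 megakaryocyte markers summed to 249 to 338 and 352 to 935 CPM (3 rose). The 8 erythroid markers summed to 66.4 to 102 and 128 to 1170 CPM (2 rose, not far from the 15.4% of all genes). The part of these cells in the results below was not tested. Sex, genotype and the replicate letter (A for vehicle, AG221 and ruxolitinib, B for combined and WT, with no meaning given) cannot be told apart from the groups they follow.

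Ribosomal protein genes together took 1.83% to 3.43% of all counts in a library. WT libraries B28, B30 and B31 had 1.83%, 1.97% and 2.48%, and vehicle libraries A1, A3 and A4 had 2.43%, 2.34% and 2.31%. AG221 libraries A8, A9 and A10 had 3.19%, 2.88% and 3.43%. The share was 2.18%, 2.36% and 2.34% in ruxolitinib libraries A14, A16 and A17, and 2.28%, 2.31% and 2.35% in combined libraries B24, B25 and B26. All 3 AG221 libraries were above the other 12, whereas the WT library B31 lay above every vehicle library. WT libraries had the largest TMM scaling factors (1.13 to 1.17, against 0.916 to 1.02 elsewhere), and per scaled library size the share was 1.84% ± 0.315 in WT, 2.47% ± 0.0623 in vehicle, 3.34% ± 0.308 in AG221, 2.39% ± 0.116 in ruxolitinib and 2.32% ± 0.0646 in combined libraries (SD, n = 3). On this scale WT (1.62% to 2.20%) and vehicle (2.40% to 2.52%) did not overlap. In bulk RNA, fewer cells of a type and less RNA per cell cannot be told apart, and all levels are relative to the rest of the library. These shares sum over the members and were given no test.

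**Figure D1:**
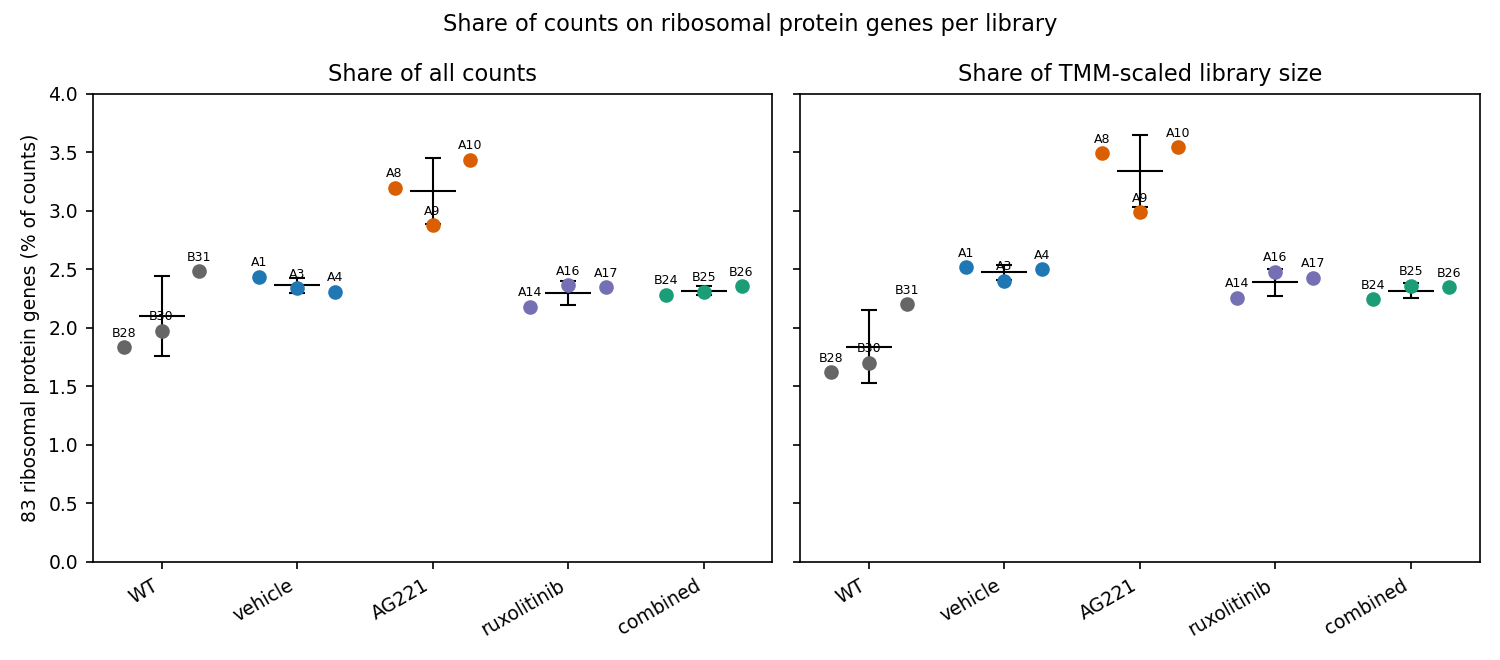
Share of counts on the 83 ribosomal protein genes (percent, y axis) in each of 15 libraries by group, as a share of all counts (left) and of the TMM-scaled library size (right). Points are libraries named by replicate, horizontal lines are means and bars are SD. The 3 AG221 libraries lie at 2.88% to 3.43% of all counts, above every other library, and the WT library B31 at 2.48% lies above the vehicle libraries on the left and below them on the right.

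Levels among the genes differed widely. Per transcript length, on the TPM scale averaged over the 15 libraries, those at the top included Rplp0 (2417 TPM), which carries the acidic stalk of the large subunit, Rpl4 (1703), Rpl32 (1531) and Rps3 (1446), which lines the entry of the mRNA channel. The lowest were Rpl10l (0.0222 TPM), Rpl3l (0.962), Rpl39l (1.27), Rpl24 (2.88) and Rpl23a (15.9). The first 3 of these are paralogs known from testis or muscle. Rpl24 and Rpl23a are core proteins of every ribosome, and 81.7% and 85.7% of the 50-base stretches of their transcripts also occur in other annotated genes, mostly pseudogenes. Exons of Rpl24 overlap Gm28037 on the same strand over 47.0% of their length, and those of Rpl23a overlap the other strand over 59.7%. Rpl35 and Rps6, with 95.1% and 84.6% shared, averaged 93.3 and 283 CPM in vehicle libraries. The cause of the low levels of Rpl24 and Rpl23a was not tested. Reads from shared or overlapping stretches can be dropped or assigned elsewhere, so the levels of genes with many copies are uncertain. The median member shared 35.9% of its stretches, 28 members shared over 50% and 3 shared none. Exons of 19 members overlap a gene on the other strand, 7 of them over more than 10% of their length, and the strand setting of the counting is not stated. Across the 15 libraries the members moved together: 62 of 82 had a Pearson correlation above 0.9 with the mean of the others (median 0.97), which is a description over libraries that share depth and scaling, and Rpl13, Rps2, Rpl36, Rpl39l and Rpl3l were below 0.5.

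**Figure D2:**
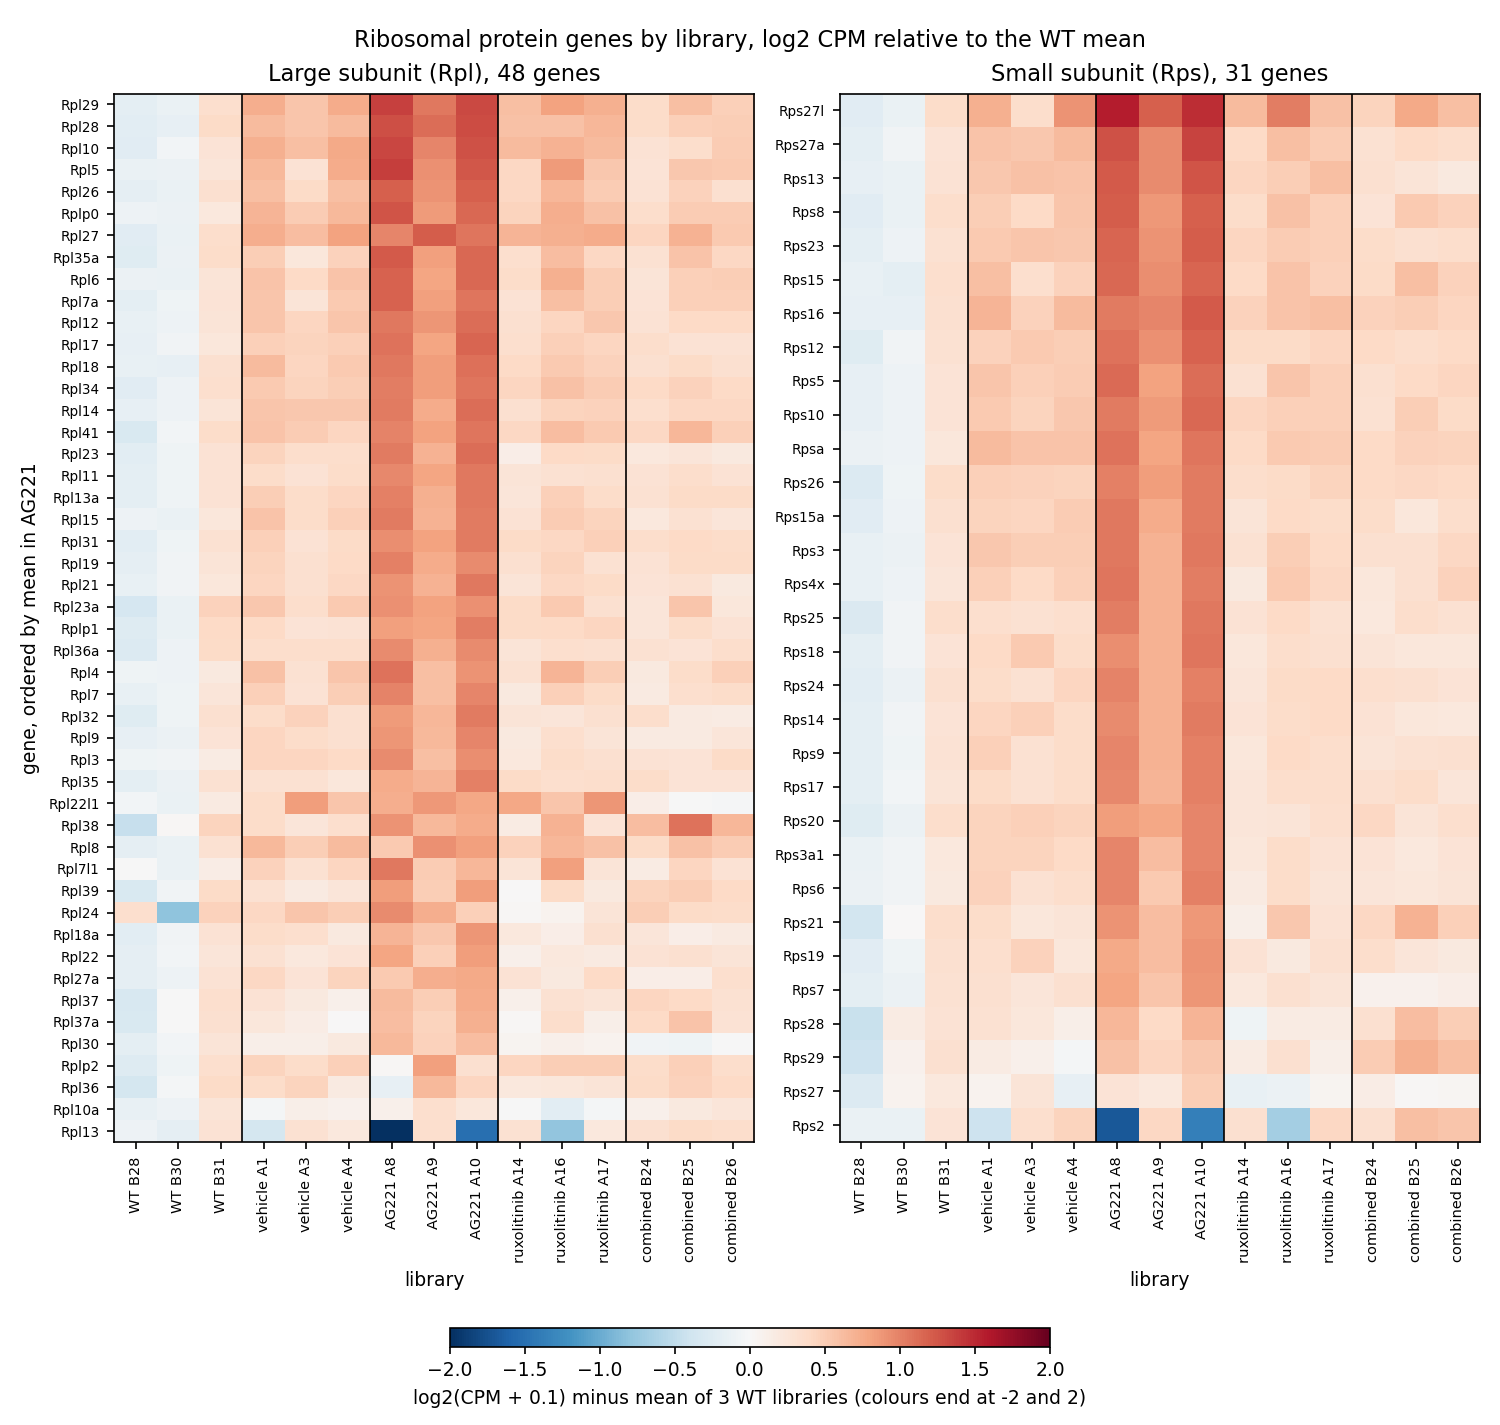
Log2 CPM of ribosomal protein genes with at least 10 counts in every library, as the difference from the mean of the 3 WT libraries (color), with large subunit genes on the left and small subunit genes on the right. Columns are libraries and rows are genes ordered by their mean in AG221. The AG221 columns are the darkest red, WT B31 is redder than WT B28 and B30, and Rpl13 and Rps2 are blue in AG221 A8 and A10.

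In vehicle-treated mutant cells, ribosomal protein genes were broadly higher than in WT cells. With edgeR's quasi-likelihood test at a Benjamini-Hochberg adjusted p under 0.05, 46 of 82 rose and 0 fell, where 15.4% of all tested genes rose and 17.9% fell. Large subunit genes gave 25 of 50 and small subunit genes 21 of 32. The median log2 fold change of the members was 0.42 (1.33-fold), against -0.09 over all genes tested, and in 50 members all vehicle libraries were above all WT libraries (25.6% of all genes), with Rpl3l alone in the other direction. Rpl10, which joins the large subunit last and completes its catalytic site, was at 175, 197 and 248 CPM in WT and 334, 310 and 347 CPM in vehicle libraries. The groups were well apart, and the log2 fold change was 0.67 ± 0.14 (SE, edgeR adjusted p = 0.00582). Rpsa, the small subunit protein also known as the laminin receptor, had 385, 391 and 491 CPM in WT and 649, 620 and 622 CPM in vehicle libraries, again without overlap (0.58 ± 0.12, adjusted p = 0.00588). Rplp0 had 897, 886 and 1115 CPM in WT and 1545, 1369 and 1507 CPM in vehicle libraries (0.61 ± 0.13, adjusted p = 0.00761). In each of these genes WT B31 was the highest WT library. Rpl27 (0.70 ± 0.15, adjusted p = 0.0064) and Rpl29 (0.66 ± 0.15, adjusted p = 0.00869) completed the 5 called members with the smallest p-values.

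Among the genes tied to anemia, Rps14 (0.41 ± 0.13, adjusted p = 0.0294) and Rpl5 (0.56 ± 0.17, adjusted p = 0.0267) rose, and Rps19 (0.33 ± 0.14, adjusted p = 0.086) and Rpl11 (0.33 ± 0.13, adjusted p = 0.0613) did not pass. Rps6, the substrate of S6 kinase downstream of mTORC1, had 0.37 ± 0.14 (adjusted p = 0.0512). Rpl13a, which also has a role in silencing inflammatory mRNAs after interferon-gamma, rose (0.41 ± 0.14, adjusted p = 0.0338). Of the stalk proteins, Rplp1 (0.29 ± 0.15, adjusted p = 0.135) and Rplp2 (0.41 ± 0.18, adjusted p = 0.0997) did not pass beside Rplp0. The smallest changes among well-counted members were those of Rps29 (0.04 ± 0.16), Rpl10a (0.04), Rps27 (0.05 ± 0.15), Rpl13 (0.07 ± 0.47) and Rpl37a (0.11).

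The count of called members turned on single libraries and on scaling. It was 5 without WT B30, 14 without WT B28, 21 without vehicle A1, 26 without vehicle A4 and 65 without WT B31, while the median of the members was 0.34 to 0.59 in the fits that left out a library. By library totals without scaling factors, 5 members were higher and 1 lower, with a median of 0.16 where all genes moved to -0.35. How many of all genes were called in these fits is not reported here.

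AG221 alone was the condition with the highest levels of these genes. In 71 of 82 members every AG221 library was above every vehicle library, where this held for 12.7% of all genes tested, and in 0 every one was below (7.26%), and the median log2 fold change was 0.48 against -0.01 over all genes. Only Rpl11, which with Rpl5 and 5S rRNA binds Mdm2 when ribosome assembly is disturbed, passed the adjusted threshold, and 0 members fell (0.471% of all genes rose and 0.516% fell). At an unadjusted p under 0.05 there were 66 members, against 25.2% of all genes. Rpl11 was at 151, 143 and 151 CPM in vehicle and 228, 203 and 243 CPM in AG221 libraries (0.60 ± 0.13, edgeR adjusted p = 0.0458). Rps27a, which is made as a fusion with ubiquitin, had 273, 266 and 282 CPM in vehicle and 442, 351 and 468 CPM in AG221 libraries (0.62 ± 0.14, adjusted p = 0.0525). Rpl28 had 0.63 ± 0.14 (adjusted p = 0.0537) and Rplp0, at 2298, 1726 and 2119 CPM in AG221, 0.47 ± 0.13 (adjusted p = 0.0753). A9 was the lowest AG221 library in each of these genes and still lay above vehicle. Many members therefore sat just above the threshold. The count was 64 by DESeq2 and 55 among genes with at least 10 counts in every library. Without AG221 A9 it was 66 (64 higher, and Rpl13 and Rps2 lower), and without any other single library 0. How many of all genes were called in these fits is not reported here, so these counts show nothing particular to the members. With A9 as the only AG221 library, 0 members passed and the median was 0.30.

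Ruxolitinib alone left these genes near vehicle levels. No member passed the test (0 of 82 at an adjusted p under 0.05 by edgeR and by DESeq2, 1 at an unadjusted p under 0.05, against 4.56% of all genes), where 0.0% of all genes rose and 0.0168% fell. The median log2 fold change was -0.05, with the middle 50% of members between -0.08 and 0.01, against 0.01 over all genes. In 16 members all ruxolitinib libraries were below all vehicle libraries, where 4.5% of all genes were, and in 2 all were above (3.67%). Rps20 was the well-counted member with the smallest p-value, at 283, 289 and 282 CPM in vehicle and 246, 249 and 261 CPM in ruxolitinib libraries (-0.18 ± 0.14, adjusted p = 1.0). Rpl3l and Rpl39l, which had smaller or similar p-values, are described with the paralogs. This difference was close to its error.

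**Figure D3:**
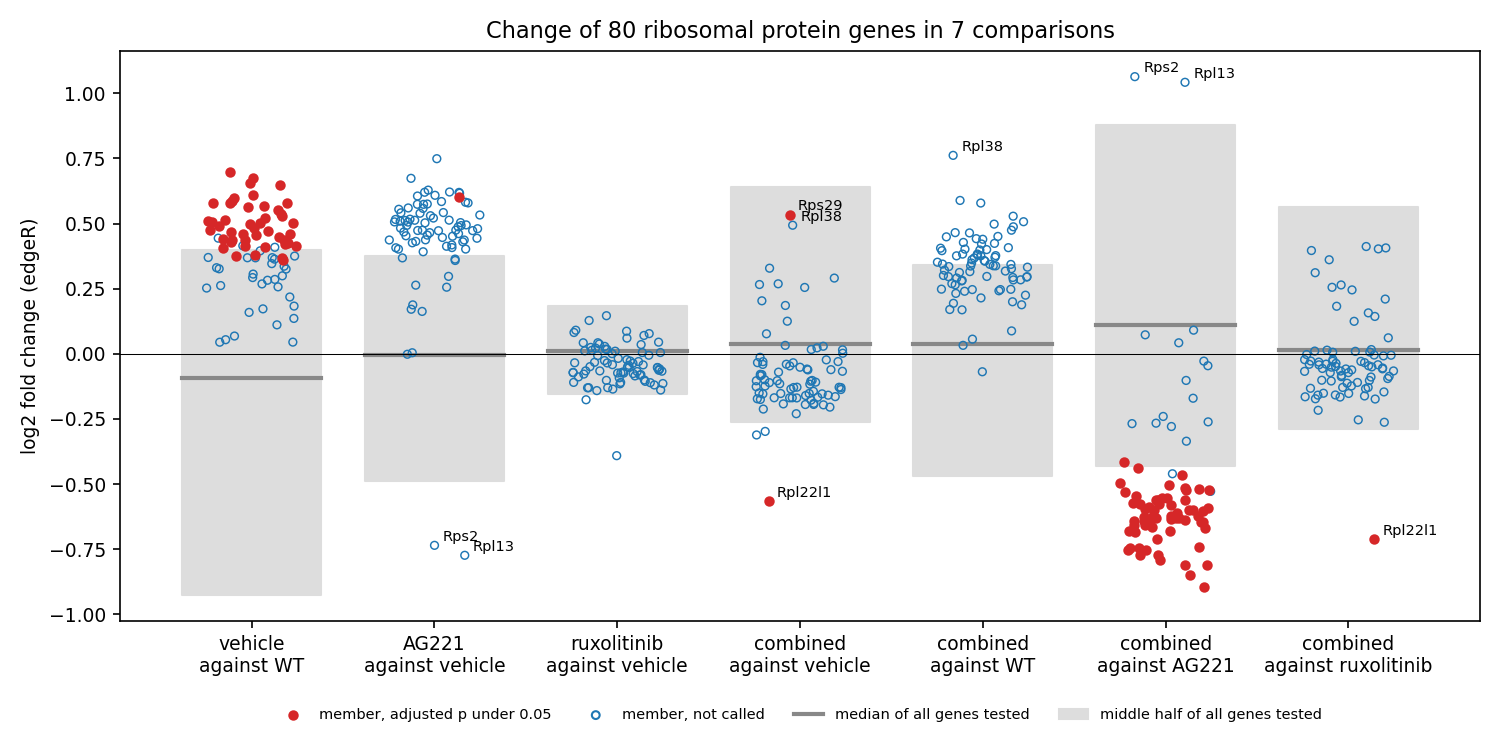
Log2 fold changes from edgeR (y axis) of the 80 ribosomal protein genes with at least 10 counts in every library in 7 comparisons (x axis). Filled points passed an adjusted p under 0.05, gray lines are the median and gray boxes the middle 50% of all 17834 genes tested. The members lie above the gray line for vehicle against WT (median 0.42) and AG221 against vehicle (0.48), close to it for ruxolitinib against vehicle (-0.05), and below it for combined against AG221 (-0.60).

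With both drugs, levels of the members were close to those in vehicle, and the few called changes concerned single genes. Against vehicle, 1 of 82 members rose (Rps29) and 1 fell (Rpl22l1), while 8.28% of all genes rose and 4.21% fell. The median was -0.11 against 0.04 over all genes, and combined libraries lay wholly below vehicle libraries in 30 members and wholly above in 8 (15.2% and 19.5% of all genes). Rps29, a small zinc-binding protein of the small subunit, was at 68.5, 65.3 and 59.5 CPM in vehicle and 87.0, 100.1 and 92.9 CPM in combined libraries (0.53 ± 0.16, edgeR adjusted p = 0.046). Rpl38, whose loss alters the pattern of the skeleton in mice, had 52.0, 47.7 and 51.0 CPM in vehicle and 62.1, 86.2 and 63.8 CPM in combined libraries, without overlap but also without a call (0.49 ± 0.22, adjusted p = 0.162). Rpl22l1 is described with its partner. Neither call held in every fit that left out a library: Rps29 was called in 0 and Rpl22l1 in 1 of 6.

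Against WT, 0 of 82 members passed in combined libraries by edgeR, where 1.63% of all genes rose and 1.61% fell. At an unadjusted p under 0.05 there were 47 members (25.4% of all genes). By DESeq2 8 members passed, all higher. The median was 0.34 against 0.04 over all genes, and 42 members were wholly above WT (22.3% of all genes). The smallest p-values were those of Rpsa (0.43 ± 0.12, adjusted p = 0.0622), Rpl27 (0.53 ± 0.15, adjusted p = 0.0624) and Rps29 (0.58 ± 0.16, adjusted p = 0.0632). Without WT B31, 21 members passed, all higher. Against ruxolitinib alone, 1 of 82 members fell (Rpl22l1) and 0 rose, where 8.5% of all genes rose and 3.94% fell, and the median was -0.05 against 0.01 over all genes. Combined libraries were wholly above ruxolitinib libraries in 9 members and wholly below in 9 (19.9% and 15.6% of all genes).

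Of the comparisons made, combined treatment against AG221 alone had the largest median change of the members. AG221 against ruxolitinib was not tested, and ruxolitinib and combined libraries had similar shares of counts (means 2.29% and 2.31%, against 3.17% in AG221). In combined against AG221, 63 of 82 members were lower and 0 higher, where 14.3% of all genes were lower and 18.9% higher. This covered 36 of 50 large and 27 of 32 small subunit genes, with a median of -0.60 (0.662-fold) against 0.11 over all genes, and in 67 members all combined libraries were below all AG221 libraries (20.3% of all genes). Rps13 was at 261, 216 and 269 CPM in AG221 and 139, 133 and 129 CPM in combined libraries (-0.90 ± 0.13, edgeR adjusted p = 0.00192). Rps27a had 442, 351 and 468 CPM in AG221 and 226, 242 and 232 CPM in combined libraries (-0.85 ± 0.14, adjusted p = 0.0023), and Rpl10 had 515, 404 and 494 CPM and 251, 262 and 293 CPM (-0.81 ± 0.14, adjusted p = 0.00262). These ranges lay far apart, also for A9. Rps23, which sits in the decoding center (-0.75 ± 0.13, adjusted p = 0.00275), and Rpl17 (-0.71 ± 0.13, adjusted p = 0.00297) followed. Without each library in turn the count was 55 to 66. With A9 as the only AG221 library, a fit in which this lone library is assumed to vary like the others, 0 members passed and the median was -0.43. The 19 members without a call included Rps29 (0.09 ± 0.16), Rpl38 (0.04 ± 0.22), Rps28 (-0.10 ± 0.18), Rps27 (-0.26 ± 0.15), Rplp2 (-0.03 ± 0.18), Rpl36 (0.07 ± 0.20), Rpl13 and Rps2. This comparison and that of AG221 against vehicle share the AG221 libraries. A test of whether the AG221 effect differed with ruxolitinib, added after seeing the data, called 9 of 82 members lower (2.82% of all genes) and 0 higher.

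Several ribosomal proteins have a second gene with its own pattern of use. Rpl22l1 encodes the paralog of Rpl22, and Rpl22 protein is known to hold down Rpl22l1 mRNA. Rpl22l1 was at 24.9, 23.6 and 29.4 CPM in WT, 33.3, 46.3 and 38.2 CPM in vehicle, 42.8, 47.3 and 44.1 CPM in AG221, 44.4, 38.1 and 47.9 CPM in ruxolitinib and 28.5, 25.7 and 25.4 CPM in combined libraries. Combined libraries thus lay within the WT range and below those of every other mutant group. It rose in vehicle against WT (0.60 ± 0.16, edgeR adjusted p = 0.0139) and was lower in combined libraries than in vehicle (-0.57 ± 0.16, adjusted p = 0.0304), in AG221 (-0.75 ± 0.16, adjusted p = 0.00444) and in ruxolitinib libraries (-0.71 ± 0.16, adjusted p = 0.00926). With 58.9% of its stretches shared with other genes, its level is less certain than that of Rpl22, with 5.16%. Rpl22 was at 161 to 171 CPM in vehicle and 165 to 173 CPM in combined libraries (0.02 ± 0.13, adjusted p = 0.938), and at 192 to 246 CPM in AG221 it was above combined (-0.41 ± 0.13, adjusted p = 0.026).

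Rps27l, an inducible target of p53 and the paralog of Rps27, was at 104, 112 and 157 CPM in WT and 201, 157 and 228 CPM in vehicle libraries (0.65 ± 0.19, edgeR adjusted p = 0.0228), with vehicle A3 at the level of WT B31. AG221 libraries had 363, 279 and 342 CPM (0.75 ± 0.19 against vehicle, adjusted p = 0.0625), the highest such value of any member with at least 10 counts in every library, and combined libraries had 167, 208 and 186 CPM (-0.81 ± 0.19 against AG221, adjusted p = 0.00796). Rps27 itself stayed between 91.9 and 158 CPM in all 15 libraries and was called in no comparison. Rpl7l1, which is a factor of large subunit assembly more than a part of the mature ribosome, had 0.40 ± 0.17 in vehicle against WT (adjusted p = 0.0919), beside 0.41 ± 0.14 for Rpl7 (adjusted p = 0.0416). Rpl3l, the form of striated muscle, was at 1 to 33 counts per library while Rpl3 was at 553 to 1132 CPM. Rpl3l had 31, 22 and 30 counts in WT, 1, 14 and 9 in vehicle and 15, 17 and 33 in ruxolitinib libraries (-1.74 ± 0.70 in vehicle against WT, adjusted p = 0.0684). Rpl39l had 162 counts in ruxolitinib A17, 37 in vehicle A1 and at most 12 elsewhere, so that its fold changes rest on single libraries. Rpl10l had 4 and 2 counts in WT B30 and B31 and 0 in the other 13 libraries, and was not tested. Rps4l is annotated as a pseudogene and is no member.

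**Figure D4:**
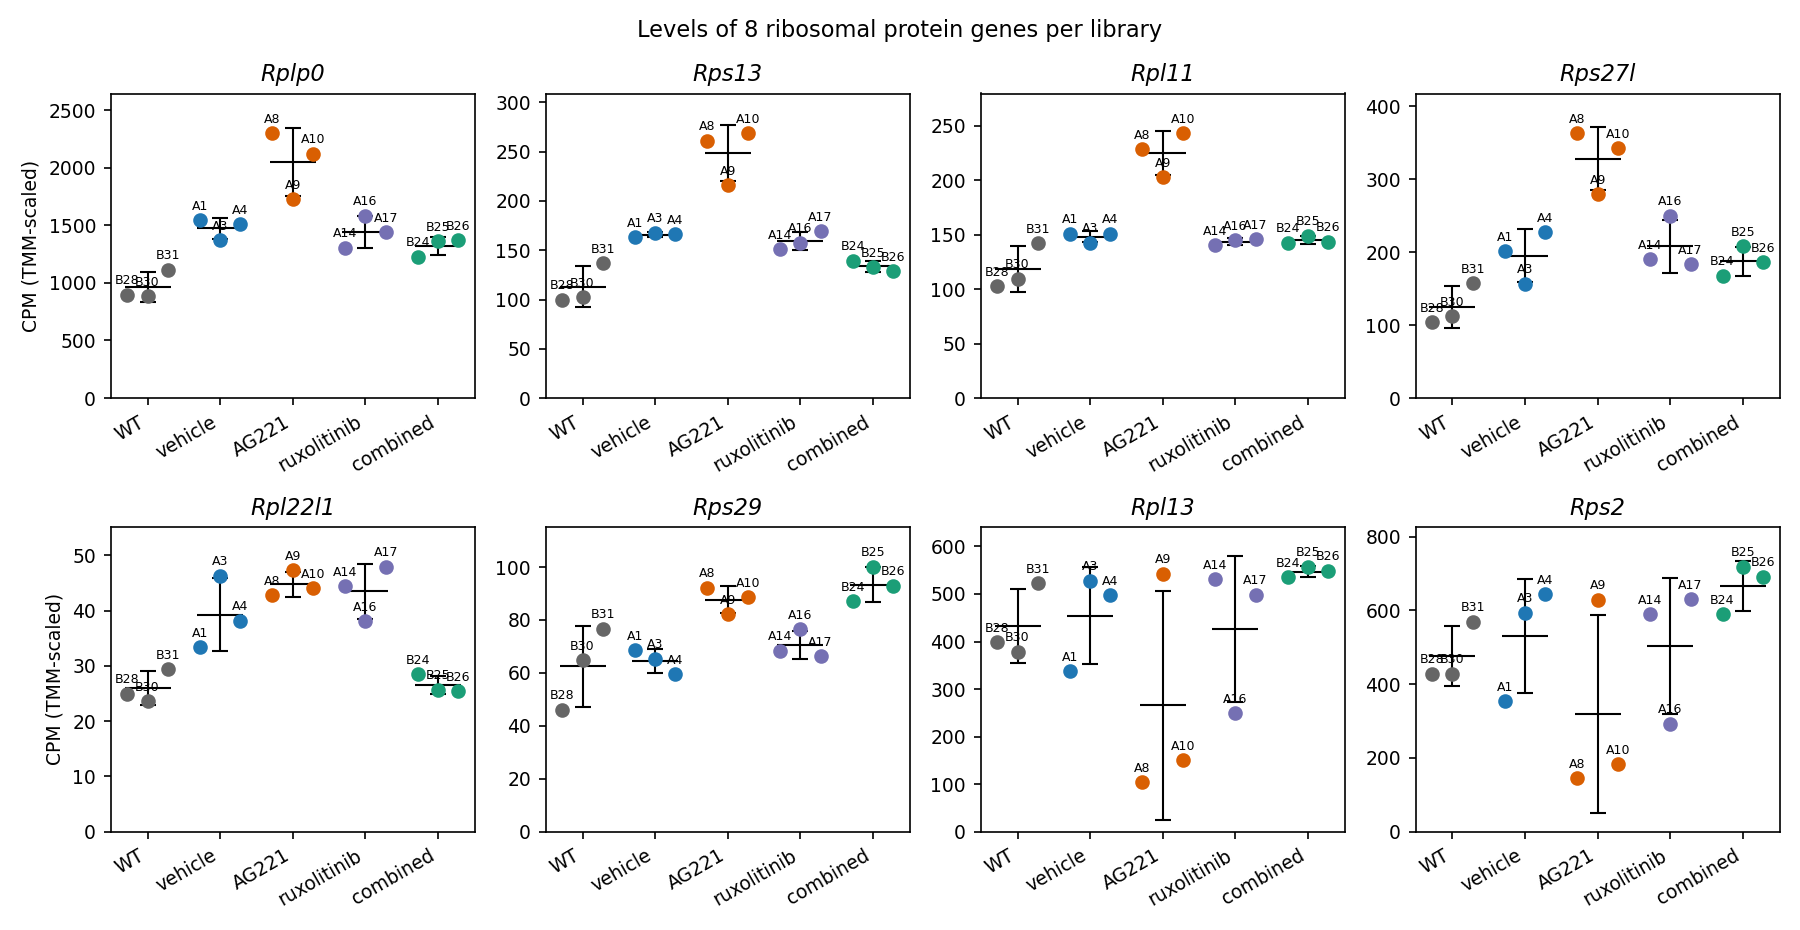
Levels in TMM-scaled CPM (y axis, from 0) of 8 ribosomal protein genes in the 15 libraries by group, with replicate names, group means (horizontal lines) and SD (bars). Rplp0, Rps13, Rpl11 and Rps27l peak in AG221, Rpl22l1 is at 25.4 to 28.5 CPM in combined libraries, Rps29 is at 87.0 to 100.1 CPM there, and Rpl13 and Rps2 are low in AG221 A8 and A10.

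Rpl13 and Rps2 ran against the other members, with correlations of -0.55 and -0.49 with the mean of the others. Rpl13 was at 104 and 151 CPM in AG221 A8 and A10 but at 542 CPM in A9, and at 337 CPM in vehicle A1 and 249 CPM in ruxolitinib A16, with 379 to 557 CPM in the remaining libraries. Rps2 followed it library by library (145 and 182 CPM in A8 and A10, 629 in A9, 354 in A1 and 293 in A16). The spread within groups was so wide that neither passed in any comparison by edgeR, with -0.77 ± 0.47 (adjusted p = 0.313) and -0.74 ± 0.45 (adjusted p = 0.32) in AG221 against vehicle. A8 and A10 were also low in genes of high GC content. Among all genes whose transcripts have at least 60% GC, the median level in A8 and A10 was -1.22 on the log2 scale relative to A9, and it was -0.48 for 55% to 60%, -0.09 for 50% to 55% and 0.13 for 40% to 45%. Rpl13 (57.1% GC) and Rps2 (56.3%) have GC-rich transcripts, as have Rpl36 (60.8%, at 109 and 164 CPM in A8 and A10 and 191 in A9) and Rpl8 (58.2%, at 545 and 674 CPM, and 714 in A9). Other members of like GC content were higher in A8 and A10, such as Rps15 (60.1%, at 338 and 339 CPM, and 289 in A9) and Rps19 (58.6%, at 504 and 553 CPM, and 459 in A9). Of 21 members with at least 55% GC and at least 10 counts in every library, A8 and A10 were both below A9 in 5 and both above it in 16, and of 59 members with less GC in 3 and 54. The part of GC content in the levels of these genes was not tested. With GC content and length offsets per library, 63 members were lower in combined against AG221 and 41 were higher in vehicle against WT, close to the counts without offsets, and 0 were called in AG221 against vehicle.

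Members are short, and other transcripts of 500 to 1000 bases had median changes in the same direction but closer to 0. The median transcript of a member had 704 bases, against 1970 for all genes tested, and 65 of the 80 well-counted members had at most 1000 bases. Among other protein-coding genes, those of 500 to 1000 bases had a median log2 fold change of 0.20 in vehicle against WT, 0.10 in AG221 against vehicle and -0.11 in combined against AG221, while those over 4000 bases had -0.40, -0.13 and 0.39. The 207 such genes of up to 500 bases had 0.25, -0.06 and -0.02, so that AG221 against vehicle went the other way. The members' medians of 0.42, 0.48 and -0.60 were further from 0 in each case. The mean transcript length, weighted by counts, was 2210 to 2260 bases in AG221 libraries and 2350 to 2517 bases in the others, and mitochondrially encoded genes took 1.23% to 1.46% of counts in AG221 libraries and 0.846% to 1.12% in the others. The part of RNA quality was not tested. Within the family, members up to 544 bases and longer members had medians of 0.36 and 0.43 in vehicle against WT and -0.58 and -0.61 in combined against AG221. Members with at most 50% of shared stretches gave 0.42 and -0.59 in these comparisons, and those with more gave 0.42 and -0.61.

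**Figure D5:**
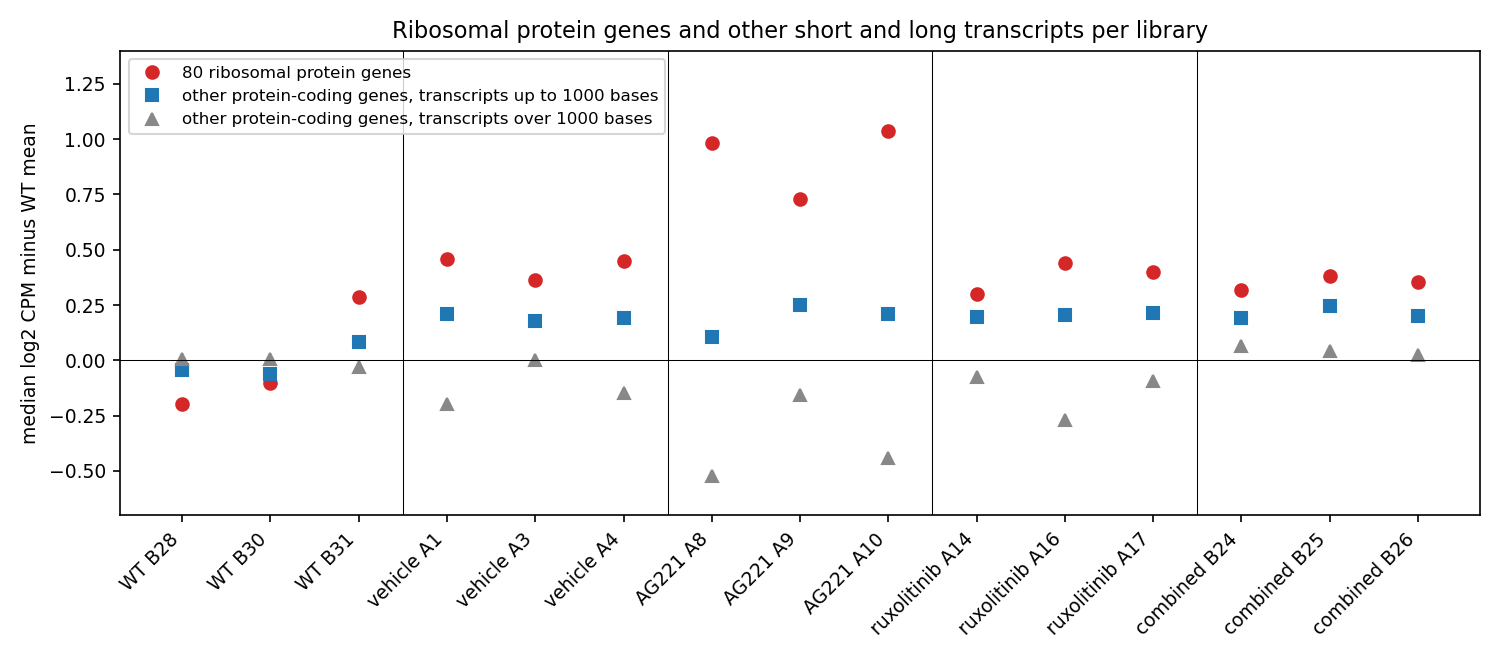
Median log2 CPM relative to the WT mean (y axis) in each library (x axis) for the 80 ribosomal protein genes, for other protein-coding genes with transcripts up to 1000 bases and for those over 1000 bases. In AG221 libraries the members lie at 0.73 to 1.04, while the other short transcripts lie at 0.10 to 0.25, near their values in the other mutant libraries. Transcripts over 1000 bases lie at -0.52, -0.15 and -0.44 in AG221 A8, A9 and A10. In the other mutant libraries these longer transcripts lie at -0.27 to 0.07.

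Members with and without a long tract at the annotated start did not stand apart in their change. The 21 members with at least 7 C or T after the first C, such as Rpl15 and Rps10, had a median of 0.42 in vehicle against WT (13 called) and -0.60 in combined against AG221 (18 called). The 39 matched and well-counted members without it, such as Rplp0 and Rps13, had 0.41 (21 called) and -0.60 (29 called). In AG221 against vehicle the medians were 0.49 and 0.48. These are descriptions of mRNA level, and translation, on which the tract acts, was not measured. The split rests on annotated starts and on a cut of run length, so it cannot separate mRNAs with a TOP tract from mRNAs without.

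Genes that work with the ribosome are given from lists written from general knowledge. Of 42 translation factors, 26 rose and 1 fell in vehicle against WT (15.4% and 17.9% of all genes, median log2 fold change 0.52 against -0.09), among them Etf1, which releases the finished protein (0.99 ± 0.19, edgeR adjusted p = 0.0045), Eif4g2 (0.83 ± 0.19, adjusted p = 0.0091) and Eef2, which moves the ribosome along the mRNA (0.50 ± 0.12, adjusted p = 0.0102). Of 60 ribosome assembly genes, 45 rose and 1 fell (median 0.67), with Rrp1b at 0.86 ± 0.18, Mybbp1a at 0.81 ± 0.18 and Rrp12 at 1.10 ± 0.25. Of 76 tested genes of the mitochondrial ribosome, a separate machine for mitochondrially encoded mRNAs, 32 rose and 1 fell (median 0.49). Of 24 genes around mTORC1 and Myc, 7 rose and 0 fell (median 0.24), among them Deptor and Tsc2, which restrain mTORC1, and Larp4 (1.06 ± 0.20, 0.53 ± 0.14 and 0.71 ± 0.19). The first 3 lists were, like the members, mostly lower in combined than in AG221 libraries, with 25 of 42, 40 of 60 and 41 of 76 lower and 4, 4 and 5 higher, whereas the mTORC1 and Myc list had 6 lower and 9 higher (14.3% of all genes were lower and 18.9% higher). In combined against vehicle, 8 assembly genes were lower and 2 higher, where 1 member was lower and 1 higher (4.21% and 8.28% of all genes). In AG221 against vehicle, 0 genes of the first 3 lists were called (0.471% of all genes rose and 0.516% fell). Their medians were 0.28, 0.26 and 0.42. AG221 libraries lay wholly above vehicle libraries in 13, 9 and 39 genes (12.7% of all genes). They lay wholly below in 0, 1 and 0 (7.26%). Of the mTORC1 and Myc list (median -0.23), 1 gene was called higher and 0 lower. This was Larp1 (0.86 ± 0.18, edgeR adjusted p = 0.046). Larp1 was lower in combined than in AG221 libraries (-0.90 ± 0.18, adjusted p = 0.00408). Fau, left out by its symbol, behaved as the members did. It was at 76.5, 80.1 and 108 CPM in WT and 125, 118 and 118 CPM in vehicle libraries. AG221 A8 and A9 had 193 and 173 CPM, with A10 higher still. Fau rose in vehicle against WT (0.45 ± 0.13, edgeR adjusted p = 0.0229) and in AG221 against vehicle (0.65 ± 0.13, adjusted p = 0.0458).

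The genes outside the family whose log2 CPM over the 15 libraries was most like the mean of the members were Dynlrb1 (Pearson r = 0.99), which encodes a dynein light chain, Fau (0.99), Txn1, which encodes thioredoxin (0.99), Tmem256 (0.99) and Eif3k, a subunit of the initiation factor eIF3 (0.98). Of 17669 other genes tested, 575 had a correlation above 0.9. These values are descriptions over libraries that share depth and scaling.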

How the data were processed

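SMARTer amplification, without molecular identifiers, preceded sequencing of RNA from sorted LSK cells. The authors deposited raw counts per Ensembl gene, made from mm10 (GRCm38) alignments by STAR 2.5.1a, and a table of DESeq2 1.6.3 normalized counts. This deposited signal equals the raw counts divided by 1 factor per library and was not used further. The strand setting of the counting is not given in the sources used here. Reads outside genes have no line in it.

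Symbols, coordinates, length and GC content came from GENCODE mouse release 21, which matched 44585 of 45232 IDs, and start windows from RefSeq. Shared stretches are 50-base windows of a member's transcripts that occur in other annotated genes. Genes passing edgeR's filterByExpr (17834) entered a single quasi-likelihood fit of 15 libraries in 5 groups without covariates, with TMM scaling (edgeR 4.0.16, R 4.3.3) and Benjamini-Hochberg adjustment over all genes tested. Log2 CPM used a prior count of 2. The fit was tested on simulated counts with 200 changed genes. The study speaks of the treated samples as mice, but nothing says that WT replicates came from separate mice, so p-values measure only the spread between these libraries, which in WT may be technical. An exact permutation test of 3 against 3 libraries cannot go below 0.1, and none was run.

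The members and lists were chosen with earlier results of these data known. Named members are, in each comparison, the 5 called with the smallest p in each direction (otherwise the 3 smallest p), paralogs and their partners, the 5 highest and lowest per length, Rps6, Rps14, Rps19, Rpl5, Rpl11, Rpl13a, Rpsa and the stalk genes, the 5 farthest from the median member, and 3 genes per list. Some genes that this rule names are not reported here. Rpl13, Rpl26, Rpl28, Rpl37a, Rps2, Rpl8, Rpl36, Rps15, Rps28, Rpl36al and the members whose start windows are shown were added after their values were seen. Alternatives were DESeq2 1.42.0, RLE and upper quartile scaling, scaling without the members, GC content offsets and GC content with length offsets (lowess span 0.3), filters of 1 count or of 10 counts in every library, the compared groups alone, no X and Y genes, a threshold of 0.01, members with few copies, and each library left out. Unscaled library totals, AG221 A9 alone and the interaction of both drugs were added after seeing the data.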

Additional observations from a re-analysis of the deposited data

Results flagged for a closer look

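The effect of AG221 on the members differed with and without ruxolitinib for 9 of 82. The test was a contrast in the same edgeR fit, chosen after seeing the data: the log2 change from ruxolitinib to combined minus the log2 change from vehicle to AG221. It was below 0, at an adjusted p under 0.05 over all genes, for Rps13 (-0.84), Rpl22l1 (-0.90), Rpl10 (-0.78), Rps27a (-0.77), Rpl28 (-0.79), Rpl29 (-0.80), Rps23 (-0.69), Rpl17 (-0.66) and Rpl26 (-0.75). No member was called above 0, and 2.82% of all genes were called below 0. The median over the members was -0.54, and 76 of 82 were negative. AG221 had the highest group mean for each of the 9. For Rpl22l1, however, its libraries overlapped those of vehicle and of ruxolitinib, and combined libraries were lower than ruxolitinib libraries (-0.71). The count was 9 with GC content and length offsets and 60 with upper quartile scaling. Over all 17834 genes these fits called 1705 and 3124 in either direction, against 1502 in the main fit. The count of members depended on single libraries. Without AG221 A9 it was 56 (54 lower, with Rpl13 and Rps2 higher), and without vehicle A1 4. It was 2 without ruxolitinib A14 or combined B26, and 0 without any other single library of these 4 groups. Calls over all genes moved in the same way. They were 6087 of 19125 without A9, 1088 to 1731 without A1, A14 or B26, and 44 to 218 where no member was called. Dixon's test of single libraries was not applied, since every group had 3.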

How the results depend on the processing

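No paired analysis was possible because the groups share no replicate numbers in the labels. Counts of called members in the other settings describe how stable the calls were. Apart from the interaction, the calls over all genes in those settings are not reported here. The counts of called members in vehicle against WT (46) were 5 to 65 with 1 library left out, 9 under upper quartile scaling, 29 with a filter of 1 count, 24 with 10 counts in every library, 5 at 0.01 and 6 by library totals, and stayed within 1.5 times under 8 other settings. In AG221 against vehicle (1) they were 0 to 66 with 1 library left out, 64 by DESeq2, 4 by RLE, 47 by upper quartile scaling, 4 with GC offsets, 55 with 10 counts in every library, 3 by library totals, and 0 with GC and length offsets, a filter of 1 count, the groups alone, 0.01, few copies or A9 alone. In combined against vehicle (2) they were 0 to 1 with 1 library left out, 1 by RLE, upper quartile scaling, GC offsets, GC and length offsets, the groups alone, few copies or library totals, and 0 with a filter of 1 count or at 0.01. In combined against WT (0) they were 0 to 21 with 1 library left out and 8 by DESeq2. In combined against AG221 (63) they were 41 with few copies, where fewer members were counted, and 0 with A9 alone. In combined against ruxolitinib (1) the count was 0 with few copies, and in ruxolitinib against vehicle it was 0 throughout. The interaction (9) gave 60 by upper quartile scaling and 0 to 56 with 1 library left out. Its calls over all genes moved too, from 1502 to 3124 by upper quartile scaling and to 44 to 6087 with 1 library left out.

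The members' median log2 fold changes moved mostly with the scaling of all genes. Upper quartile scaling gave 0.68 in AG221 against vehicle, -0.22 in combined against vehicle, 0.14 in combined against WT, -0.91 in combined against AG221 and -0.19 in combined against ruxolitinib, with all genes shifted by 0.19, -0.11, -0.20, -0.29 and -0.13. Library totals gave 0.16 in vehicle against WT, -0.041 in combined against vehicle and 0.14 in combined against WT, with shifts of -0.26, 0.06 and -0.20. GC offsets gave -0.20, -0.76 and -0.13 for combined against vehicle, AG221 and ruxolitinib, and GC and length offsets -0.15 against vehicle. A9 alone gave 0.30 in AG221 against vehicle and -0.43 in combined against AG221. The share of counts in vehicle was 2.47% on the scaled size instead of 2.36%. Of 735 alternatives for 40 values of named members, 599 kept direction and side of the threshold, 100 lost and 33 gained a call, and 3 turned direction, all with A9 as the only AG221 library: Rpl13 (0.25) and Rps2 (0.24) in AG221 against vehicle, and Rpl13 (-0.0011) in combined against AG221. Apart from fewer samples or members, the cause was not tested.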

Other observations

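Copies of ribosomal protein genes were counted as genes of their own. Of 1104 annotated pseudogenes that share a 50-base stretch with a member, 226 had enough counts to be tested, and together the copies took 0.0416% to 0.0717% of counts in a library. In vehicle against WT, 14 rose and 12 fell (15.4% and 17.9% of all genes, median log2 fold change 0.20), and in combined against AG221, 2 were higher and 22 lower (18.9% and 14.3% of all genes, median -0.35). Gm6472 stood out: it was at 4.54, 3.77 and 5.43 CPM in WT and at 35.0 to 62.4 CPM in the 12 mutant libraries (3.18 ± 0.17 in vehicle against WT, edgeR adjusted p = 1.92e-07). It was chosen after its values were seen, and mutant genotype and sex cannot be told apart here.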
